A study of Mus musculus with 158 samples.

Results

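The cadherin superfamily was described across 6 groups of mouse brain cells, in gene counts from the RNA of single cells that had been drawn into a patch pipette. Members were chosen by symbol. They were every row named Cdh or Pcdh with a number, every row of the alpha, beta and gamma protocadherin clusters, and Fat1 to Fat4, Dchs1 and Celsr1 to Celsr3. This gave 101 of 21956 gene rows. They were 5 classical type I cadherins, 13 classical type II cadherins, 5 further Cdh rows, 8 Fat, Dachsous and Celsr genes, 10 delta protocadherins, 2 other non-clustered protocadherins, and 14 alpha, 22 beta and 22 gamma cluster rows.

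Cadherins are membrane proteins whose extracellular repeats bind calcium and hold cells together, most often by binding the same cadherin on the facing cell. Classical cadherins are tied to actin through catenins, and some of the delta protocadherins through the WAVE complex. The Fat, Dachsous and Celsr proteins act in planar cell polarity and, for Fat and Dachsous, in growth control. Clustered protocadherins are known in neurons for promoter choice that differs from cell to cell, which gives each neuron its own set of isoforms.

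Primary cultures gave 86 astrocytes and 13 neurons of the cortex and 8 neurons of the hippocampus. Acute brain slices gave 22 cortical neurons, 15 neurons of the hippocampal field CA1 and 5 of the field CA3. No cell carried a transgene or had been given a treatment, per the labels. The strain was C57/BL6/N, except that the hippocampal cultures and the 3 astrocytes kept for 7 days were C57/BL6. Of the other astrocytes, 70 were collected at 12 days in culture, 5 at 14 days and 8 at 15 days. Cortical neurons were collected at 6 days (3 cells), 10 days (3 cells), 13 days (4 cells) and 15 days (3 cells), and hippocampal neurons at 15 days. Age and sex of the animals were not used here. The labels do not say which cells share an animal or a dish, so a group stands for 1 sample, and groups are described without tests.

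A library held 535369 to 38680739 counts, with a median of 10735985. In 9 cases a pair of libraries was taken to come from the same cell and was summed. Some cells went against their labels. More astrocyte than neuron markers were detected in 3 of 13 cultured cortical neurons, 4 of 22 slice cortical neurons and 1 of 14 CA1 neurons, and at least 3 of 8 microglia markers in 7 of 22 slice cortical, 7 of 14 CA1 and 3 of 13 cultured cortical neurons (J6, J8_23 and J5_18). At least 1 microglia marker was also detected in 19 of 86 astrocytes, with up to 87.5% of the 8 in a cell. A median of 65% of 20 astrocyte markers was detected in the astrocytes (range 10% to 95%), 40% in the cultured cortical neurons (5% to 95%) and 30% in the cultured hippocampal neurons (15% to 50%). Of 20 neuron markers, the same groups had a median of 20% (0% to 45%), 70% (40% to 95%) and 97.5% (95% to 100%). In the slice groups the median for neuron markers was 62.5% in cortical, 62.5% in CA1 and 65% in CA3 neurons. Among the cultured hippocampal libraries, 2 pairs shared a title number (M1S with M1D, and M9S with M9D), and no label says whether such a pair came from 1 cell. They were counted as separate cells.

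A level below is the count of a gene summed over a group, per 1000000 counts of that group (summed CPM). A detected gene had at least 5 counts after each cell had been thinned to 1000000 counts, which 14 of the 15 CA1 cells reached. A gene was called higher in a group when its summed CPM plus 1 was at least 2-fold higher (a log2 ratio of 1) and it was detected in a share of cells at least 25 percentage points larger. Intervals are 95% intervals, exact Poisson for levels and Clopper-Pearson for shares of cells. The Poisson intervals cover counting error only, the Clopper-Pearson intervals take the cells of a group as independent draws, and neither covers differences between animals or dishes.

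Of the 101 members, 82 were detected in at least 1 cell and 19 in none. Over all 21956 rows, 16359 were detected in at least 1 cell. The 19 included Cdh5, the cadherin of endothelial junctions, Cdh3 (P-cadherin), Fat2, and 12 clustered rows. In the astrocytes 62 members were detected in some cell, against 46 in each group of cultured neurons, 34 in slice cortical, 28 in CA1 and 15 in CA3 neurons. Such numbers rise with the number of cells, which was 86 astrocytes, 13 cultured cortical, 8 cultured hippocampal, 22 slice cortical, 14 CA1 and 5 CA3 neurons. Shares over all rows are not given by group. Broad expression was rarer. The number of members detected in at least 50% of the cells was 7 in the astrocytes, 4 in the cultured cortical neurons, 15 in the cultured hippocampal neurons, and in slices 1 in the cortex, 0 in CA1 and 5 in CA3.

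**Figure D1:**
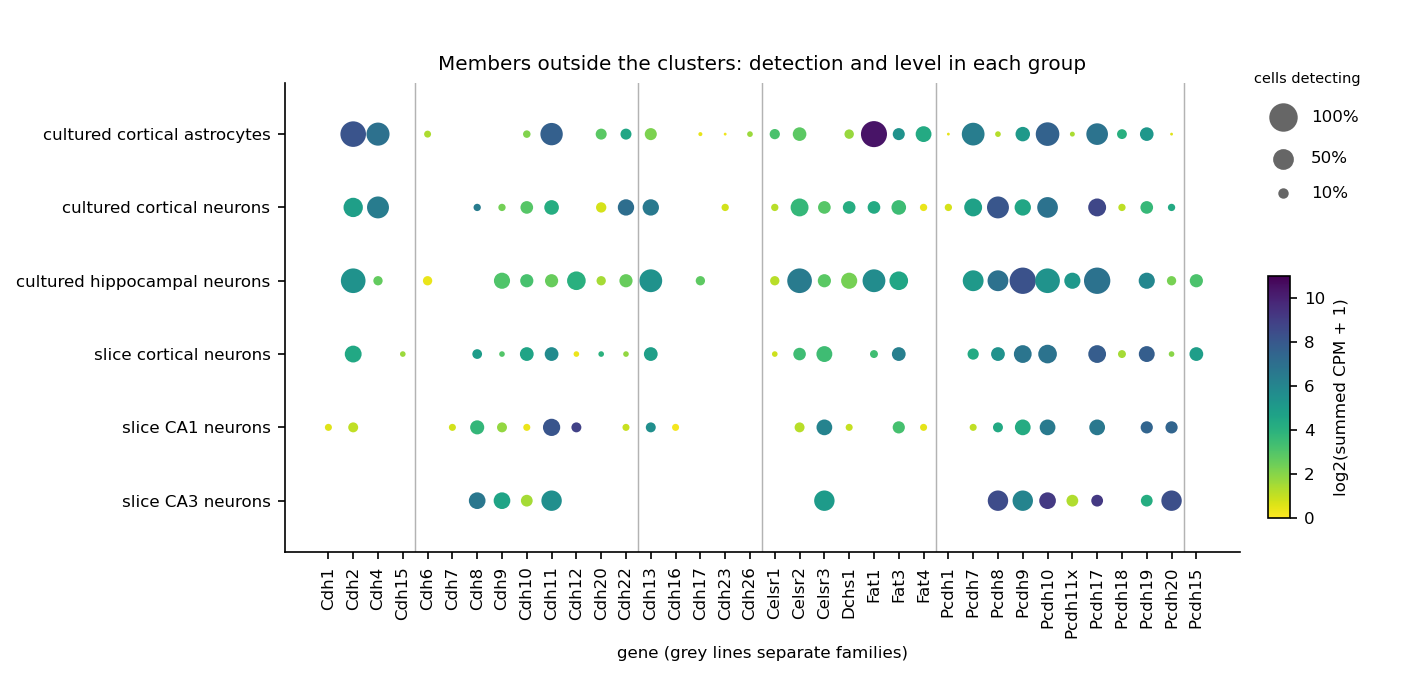
Members outside the 3 clusters (x axis) in the 6 groups (y axis). Dot size is the percentage of cells that detected the gene, colour is the log2 of the summed CPM plus 1, and grey lines separate the families. Fat1, Cdh2, Cdh11 and Cdh4 have large dots in the astrocytes, and Pcdh8 in the cultured neurons.

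Single cells held few members. A cultured cortical astrocyte detected a median of 10 members (range 0 to 23), a cultured cortical neuron 11 (0 to 22) and a cultured hippocampal neuron 17.5 (11 to 26). The astrocyte with none was J7_25, in which 6 of 8 microglia markers were detected. The medians in slices were 5 (0 to 19) in cortical, 3.5 (1 to 10) in CA1 and 5 (2 to 8) in CA3 neurons. The groups also differed in the number of genes of any kind per cell, with medians from 1820 in slice cortical neurons to 7517 in cultured hippocampal neurons. Set against that number, the median was 1.85 members per 1000 detected genes in the astrocytes and between 2.22 and 2.64 in the 5 groups of neurons.

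**Figure D2:**
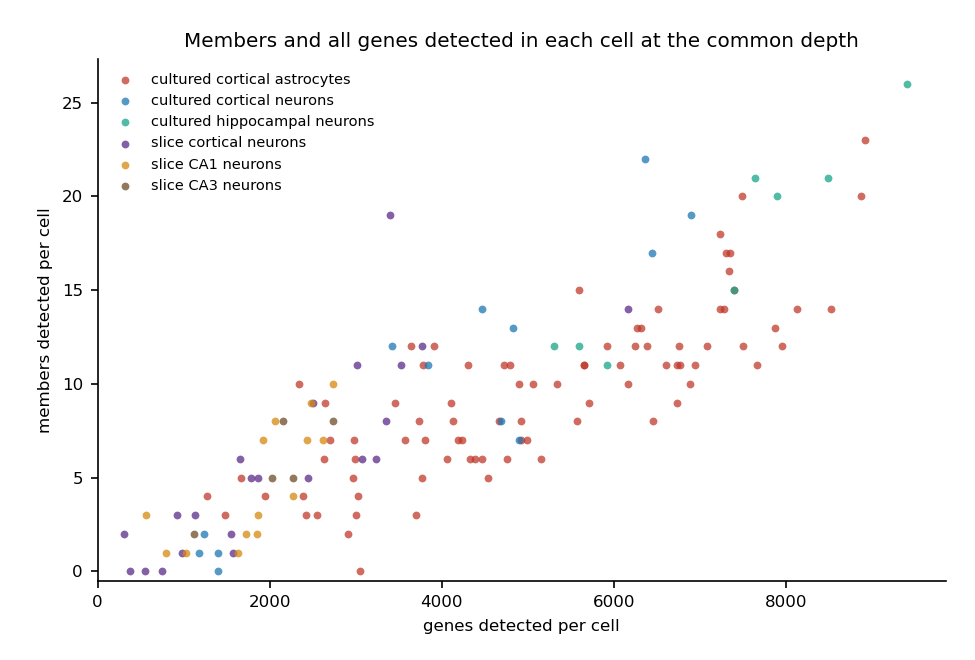
Number of genes detected (x axis) and number of cadherin superfamily members detected (y axis) in each cell, after thinning to 1000000 counts, with a point per cell coloured by group. Cultured hippocampal neurons lie at the upper right, with 11 to 26 members, and slice neurons at the lower left.

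Much of a level often came from 1 cell. Among members with at least 10 counts in the astrocytes, 44 of 81 had more than 50% of their counts in a single cell. The same was true of 44 of 55 in the cultured cortical neurons, 42 of 58 in the cultured hippocampal neurons, 34 of 45 in slice cortical neurons, 25 of 34 in CA1 neurons and 16 of 16 in CA3 neurons. Summed levels are therefore given with the values of the cells.

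To show regulatory sequence beside these members, the 250 bases before the transcription start are printed for Fat4 and for 4 delta protocadherins that differed between groups or were broadly detected. RefSeq promoters were at hand for 28 of the 101 members, and these 5 have a start that is the same in RefSeq and GENCODE. The build is GRCm38.p6, and each sequence reads 5′ to 3′ on the strand of its gene. Capitals mark a match, on either strand, to the letters of a core promoter motif. The motifs searched were TATAAA for the TATA box, CCAAT for the CCAAT box and GGGCGG for the GC box.
Fat4, chr3:38886690-38886939, plus strand: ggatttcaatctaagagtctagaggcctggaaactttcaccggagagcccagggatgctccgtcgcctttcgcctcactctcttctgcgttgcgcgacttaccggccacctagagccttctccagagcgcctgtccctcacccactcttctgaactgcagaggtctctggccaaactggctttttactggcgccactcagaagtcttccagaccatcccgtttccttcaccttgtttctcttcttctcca
Pcdh10, chr3:45378148-45378397, plus strand: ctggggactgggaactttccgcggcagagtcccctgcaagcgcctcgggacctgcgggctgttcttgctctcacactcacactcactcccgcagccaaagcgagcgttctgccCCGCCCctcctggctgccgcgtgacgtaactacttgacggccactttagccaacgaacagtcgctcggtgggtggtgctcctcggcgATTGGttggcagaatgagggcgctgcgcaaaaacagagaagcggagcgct
Pcdh17, chr14:84443313-84443562, plus strand: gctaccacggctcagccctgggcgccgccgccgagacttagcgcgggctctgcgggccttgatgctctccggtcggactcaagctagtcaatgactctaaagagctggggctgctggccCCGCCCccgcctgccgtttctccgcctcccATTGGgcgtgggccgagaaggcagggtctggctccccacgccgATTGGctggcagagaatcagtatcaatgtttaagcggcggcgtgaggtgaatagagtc
Pcdh8, chr14:79771313-79771562, minus strand: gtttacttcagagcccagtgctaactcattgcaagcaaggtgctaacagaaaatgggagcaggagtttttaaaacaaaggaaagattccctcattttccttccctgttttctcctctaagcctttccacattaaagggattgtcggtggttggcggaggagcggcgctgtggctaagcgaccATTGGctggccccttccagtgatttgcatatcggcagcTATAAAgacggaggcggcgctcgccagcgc
Pcdh9, chr14:93890680-93890929, minus strand: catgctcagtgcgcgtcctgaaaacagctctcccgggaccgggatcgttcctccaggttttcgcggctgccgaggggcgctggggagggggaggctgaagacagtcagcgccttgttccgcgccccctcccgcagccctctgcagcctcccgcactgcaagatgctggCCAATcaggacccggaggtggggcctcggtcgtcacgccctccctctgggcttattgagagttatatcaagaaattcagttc
Counting positions back from the start, the Pcdh8 sequence held TATAAA at -30 to -25, and the other 4 sequences did not hold these letters, which occur in 12.4% of 32851 RefSeq promoters of this length. CCAAT was found once each in Pcdh10, Pcdh8 and Pcdh9, 2 times in Pcdh17 and not in Fat4, against 33.8% of all promoters with a match. GGGCGG was found in Pcdh10 and Pcdh17 and occurs in 32.7% of all promoters. The sequences held 11 (Fat4), 22 (Pcdh10), 21 (Pcdh17), 11 (Pcdh8) and 18 (Pcdh9) CG dinucleotides, against a median of 6 (quartiles 2 and 16).

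Cultured astrocytes and cultured neurons of the cortex were compared first. The giant cadherin Fat1, known to act on actin and on Hippo signalling, was the most abundant member in astrocytes, with 1351 summed CPM (interval 1349 to 1353) against 19.2 (18.6 to 19.8) in the neurons. Fat4, the receptor of Dachsous 1, and the classical cadherins Cdh2 (N-cadherin) and Cdh11 were also higher in astrocytes, as was the delta protocadherin Pcdh7. Pcdh8, a protocadherin known in neurons for promoting the internalization of N-cadherin at synapses, was higher in the neurons. Of 87 members measured (10 or more counts over the cells of the pair of groups, in 3 or more cells), 5 were higher in astrocytes and 1 in neurons. Among all 17473 rows measured, 11.1% were called higher in astrocytes and 3.73% in neurons, which is above the members' 5.75% and 1.15%. The members' median log2 ratio was 0.05, against 0.08 over all rows.

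Fat1 ranged over the astrocytes from 0.643 to 6796 CPM with a median of 946, and over the cortical neurons from 0 to 357 CPM with a median of 0.119. It was detected in 84 of 86 astrocytes (97.7%, interval 91.9% to 99.7%) and in 3 of 13 neurons (23.1%, interval 5.04% to 53.8%), a log2 ratio of 6.06. The ranges overlapped, and 1 neuron held 94.9% of the neurons' Fat1 counts. Without that cell the log2 ratio was 9.38. Of the 3 neurons with Fat1, 2 had more astrocyte than neuron markers, against 1 of the other 10 neurons. Without the 3 neurons so marked the log2 ratio was 9.47. Fat1 was detected in 3 of 3, 68 of 70, 5 of 5 and 8 of 8 astrocytes at 7, 12, 14 and 15 days. The 2 astrocytes without it, J7_25 and J362_8, had 6 and 5 of 8 microglia markers. Fat1 was detected in J255_10, which also had 5, and in the astrocyte with the most (87.5% of the 8). The part of these markers was not tested.

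Cdh2, the cadherin of most neural adherens junctions, ranged over the astrocytes from 0.306 to 1317 CPM (median 245.6) and over the neurons from 0 to 122.3 CPM (median 16.2). Detection was found in 81 of 86 astrocytes and 7 of 13 neurons, with a log2 ratio of 3.31. Every astrocyte with Cdh2 also had Fat1, but only 2 of 86 astrocytes lacked Fat1, so this overlap was nearly fixed in advance. The share of cells with Cdh2 no longer differed by 25 points when 1 count was enough for detection. Both marker lists were more fully detected in the 7 neurons with Cdh2 than in the 6 without. The medians were 80% against 15% of astrocyte markers and 80% against 57.5% of neuron markers. The 7 detected 3423 to 6891 genes of any kind, and the 6 detected 1182 to 6362. The part of the markers and of the number of genes in the result was not tested.

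Cdh11, a type II cadherin best known from mesenchymal cells, ranged over the astrocytes from 0 to 3425 CPM (median 98.2) and over the neurons from 0 to 91.0 CPM (median 0.0768). Cells with Cdh11 were 62 of 86 astrocytes and 4 of 13 neurons (log2 ratio 3.51, or 4.58 without the neuron with the highest level). Fat4 had 18.8 summed CPM in astrocytes and 0.296 in neurons (log2 ratio 3.94), with 31 of 86 cells against 1 of 13. All 31 astrocytes with Fat4 had Fat1, 53 had Fat1 without Fat4 and only 2 had neither, so this overlap too was nearly fixed in advance. At least 1 of 8 fibroblast and meninges markers was detected in 66 of 86 astrocytes and 1 of 13 neurons, with a summed level from 0 to 2818 CPM (median 51.4) per astrocyte and from 0 to 40.1 CPM per neuron. The part of these markers in the levels of Cdh11 and Fat4 was not tested.

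Among the delta protocadherins, Pcdh7 had 81.8 summed CPM in astrocytes and 25 in neurons (log2 ratio 1.67) and was detected in 64 of 86 and 6 of 13 cells. This difference lay close to the 25-point limit, and leaving out any of 7 neurons ended the call (J10_11, J15_12, J5_18 or any of 4 others, with log2 ratios of 1.42 to 1.65), as did counting J6 as 2 cells. Pcdh8 ranged over the neurons from 0.0768 to 1674 CPM (median 46.2) and over the astrocytes from 0 to 50 CPM (median 0). Detection was seen in 9 of 13 neurons but 4 of 86 astrocytes, and its log2 ratio of astrocytes to neurons was -6.85. A single neuron, J6, held 73.7% of the neurons' Pcdh8 counts, and without it the log2 ratio was -5.11. J6 is a pair of libraries summed on the likeness of their counts, with titles that do not name the same cell.

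Members detected in most cells of a group need not differ between groups. Pcdh10, a delta protocadherin known for its part in synapse elimination, was detected in 69 of 86 astrocytes and 8 of 13 cortical neurons, at 193 and 114.4 summed CPM. Cdh4 (R-cadherin) was detected in 66 of 86 and 9 of 13 cells, at 121.5 and 85.3 CPM. Pcdh17, known from presynaptic vesicle assembly, was detected in 58 of 86 and 6 of 13 cells, at 111 and 405 CPM, and 77.2% of its neuronal counts came from 1 cell. Per kilobase of exon, the order of the 6 members with the highest levels in astrocytes was Fat1 (86.3 CPM per kb), Cdh2 (35.2), Cdh11 (23.1), Cdh4 (16.7), Pcdh10 (12.1) and Pcdh17 (8.57). The ranges over cells of neighbours in this order overlapped. Whether counts of this amplified RNA rise with exon length was not tested, and the order depends on it.

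**Figure D3:**
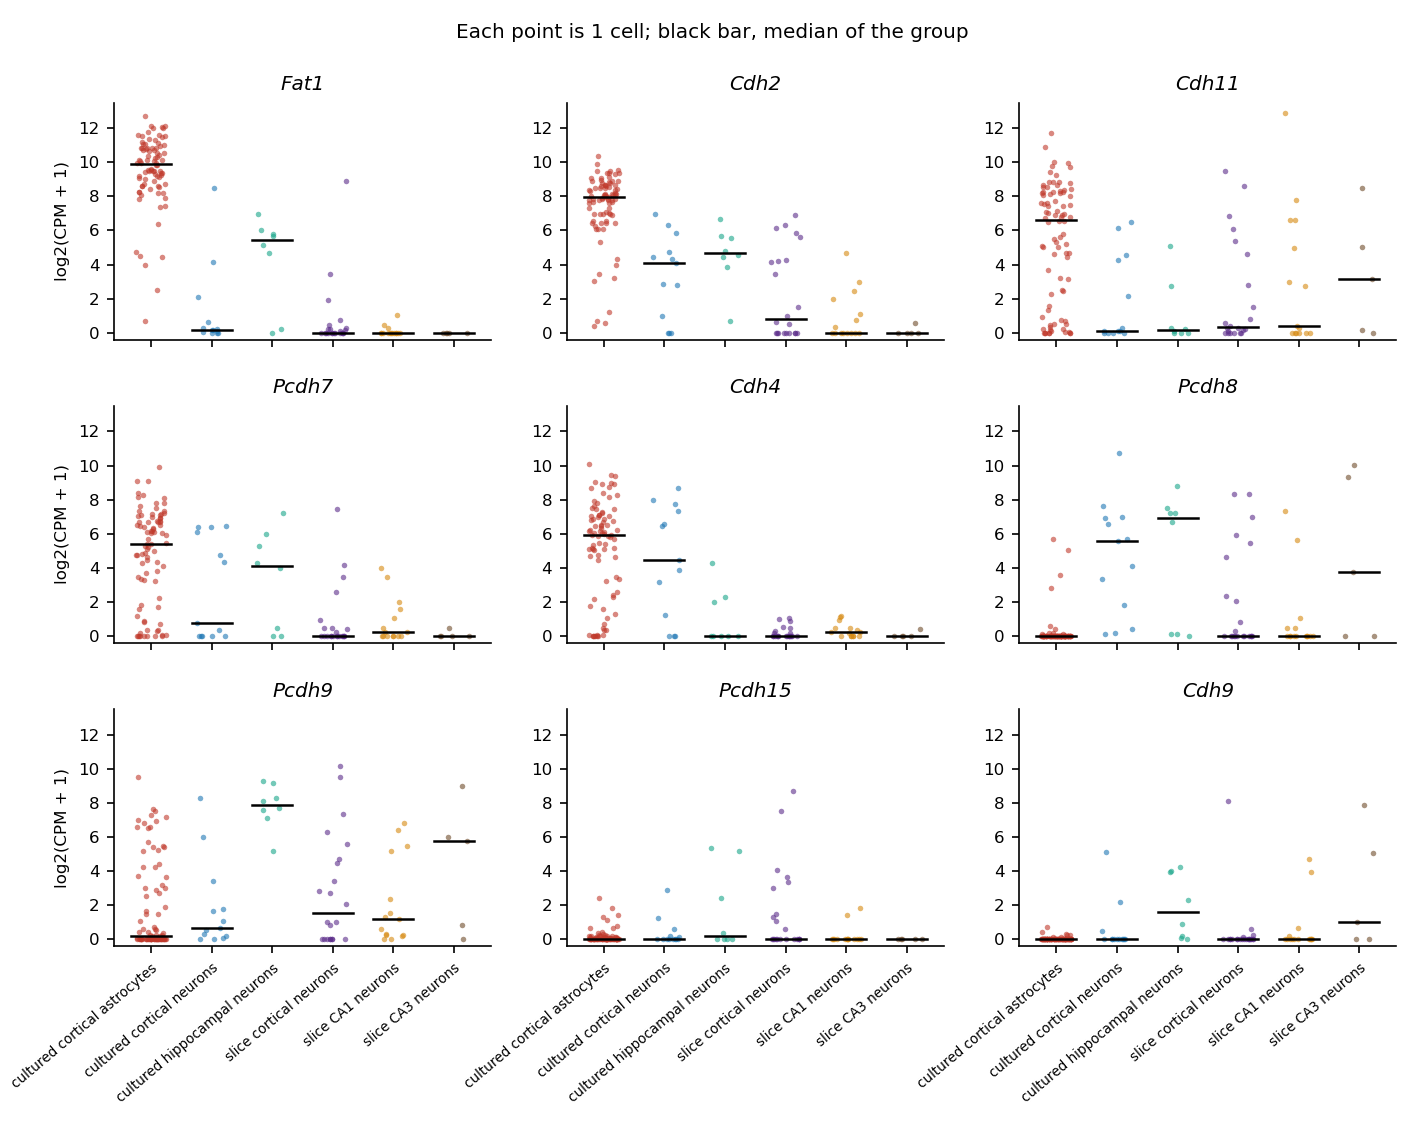
Level of 9 members in each cell, as log2 of CPM plus 1 (y axis), by group (x axis). Points are cells and black bars are medians. The medians of Fat1, Cdh2 and Cdh11 are highest in the astrocytes, Pcdh9 is above 0 in all 8 cultured hippocampal neurons, and Pcdh15 and Cdh9 are at or near 0 in most cells.

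The cadherin partners fixed as lists (40 genes) were measured in full in this comparison, and 8 were higher in astrocytes and 2 in neurons, against 11.1% and 3.73% of all rows. The median log2 ratio over the lists was 0.23. Of 11 catenins and junction anchors, 3 were higher in astrocytes and none in neurons. Ctnna1, the widely expressed alpha-catenin, had 1222 summed CPM in astrocytes and 82 in neurons, and was detected in 82 of 86 against 4 of 13 cells. Vcl (vinculin), which binds alpha-catenin under tension, had 1031 and 182 CPM, in 82 of 86 and 6 of 13 cells. The third was Mllt4 (afadin). Of 11 planar polarity partners Fzd3 and the Frizzled receptor Fzd6 were higher in astrocytes (Fzd6 78.3 against 3.45 CPM, 54 of 86 against 1 of 13 cells) and Prickle2 in neurons. In the WAVE complex, which drives actin branching, Cyfip1 (424 against 60.2 CPM) and Abi1 were higher in astrocytes and Wasf1 in neurons (7.01 against 44.6 CPM, 18 of 86 against 8 of 13 cells). Of 7 genes of clustered protocadherin promoter choice and signalling, Smchd1, a silencer of the clusters, was higher in astrocytes (48.3 against 7.68 CPM, 52 of 86 against 3 of 13 cells). None of 5 genes of cadherin proteolysis was called.

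Cultured hippocampal neurons were compared with cultured cortical neurons. The members higher in hippocampal cells included the delta protocadherin Pcdh9 and Celsr2, a planar polarity cadherin known in neurons from dendrite growth. The cortical cells had more Cdh4. Of 58 members measured, 11 were higher in hippocampal cells and 1 in cortical cells (19% and 1.72%), and over all 13485 rows measured the shares were 23.1% and 1.65%. The median log2 ratio was 0.24 for members and 0.15 for all rows. Detection was higher in the hippocampal cells by 12.5 points on average over members and by 24 points over all rows. Strain differed between these groups and cannot be told apart from the region. Neuron marker level differed too, and its part was not tested. The hippocampal cells were 15 days in culture, as were 3 of the 13 cortical neurons. In those 3, Pcdh9 was at 5.03 summed CPM (detected in 2), Celsr2 at 13.3 (detected in 2) and Cdh4 at 14.9 (detected in 3). Those 3 were J8_23, J6 and J5_18, each with at least 3 microglia markers, and J8_23 and J5_18 had more astrocyte than neuron markers. Their libraries were of the earlier basecalling version and the hippocampal ones of the later. The part of these differences was not tested.

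Pcdh9 was at 273, 139, 210, 631, 308.1, 34.8, 578 and 193 CPM in the hippocampal libraries M1S, M1D, M9D, M9S, M6S, N5S, P1S and P2S. The cortical neurons ranged from 0 to 314 CPM with a median of 0.592. All 8 hippocampal cells and 5 of 13 cortical neurons detected Pcdh9, at 300.3 and 21.4 summed CPM (log2 ratio 3.75), although the highest cortical neuron lay within the hippocampal range. Celsr2 was at 141, 274, 0.859, 37.2, 62.9, 101, 13.2 and 33.4 CPM in the same 8 libraries. Celsr2 was detected in 7 of 8 and 6 of 13 cells, at 87.0 and 11.7 summed CPM (log2 ratio 2.79). Fat1 was detected in 6 of 8 hippocampal and 3 of 13 cortical neurons, at 50.6 and 19.2 CPM (log2 ratio 1.35). Fat1 lost its call when cells were weighted equally (log2 ratio 0.59), when TMM factors were used (0.94) or when only the later basecalling version was kept (0.64), and without N5S (0.91). Without the 3 cortical neurons with more astrocyte than neuron markers it was 4.75, and the log2 ratio of Celsr2 was 3.54.

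Cdh12, a type II cadherin, was at 15.3 summed CPM in hippocampal cells and had 1 count in the cortical neurons, a ratio of 3207 (counting interval 575 to 126751). Of the cells, 4 of 8 and 0 of 13 detected it, at 17.6, 68.1, 38 and 18.3 CPM in M1S, M9D, M9S and M6S. Pcdh11x, an X-linked delta protocadherin, was at 34 and 0.0191 CPM (log2 ratio 5.10), in 3 of 8 and 0 of 13 cells. Its log2 ratio was 4.45 without M1D and 4.51 without P1S. Pcdh15, which forms the tip link of hair cells together with Cdh23, was at 7.74 and 0.397 CPM (log2 ratio 2.65) and detected in 2 of 8 cells, M9D and M9S. Without the libraries whose titles carry the letter D, Pcdh15 was no longer called (log2 ratio 2.45), nor was it without M9D alone (2.36) or M9S alone (1.53). Cdh4 was detected in 1 of 8 hippocampal cells, M1S at 18.7 CPM, and in 9 of 13 cortical neurons, which ranged from 0 to 418 CPM (log2 ratio of hippocampal to cortical -3.77, or -5.36 without M1S).

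Levels and detection went opposite ways for some broadly detected members. Pcdh17 was detected in 8 of 8 hippocampal and 6 of 13 cortical neurons, 53.8 points apart, while its log2 ratio was -1.80, as 1 cortical neuron held most of the cortical counts. Pcdh10 (26 points, -1.49), Cdh13, the GPI-anchored T-cadherin (36.5 points, -1.17) and Pcdhac2 (34.6 points, -2.46) showed the same, and none was called. Further members also reached 50% of the hippocampal cells. Cdh2 was detected in 7 of 8, Pcdh8 and Pcdh7 in 5 of 8 and Fat3 in 4 of 8 cells. Per kilobase, again without a test of how counts depend on exon length, the highest levels in hippocampal cells were those of Pcdh9 (44.3 CPM per kb), Pcdh8 (27.1), Pcdhb7 (9.86), Pcdh17 (8.87) and Celsr2 (7.56).

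Of the partners, 39 of 40 were measured, 6 were higher in hippocampal cells (23.1% of all rows were) and 0 in cortical neurons (1.65% of all rows), with a median log2 ratio of -0.62. Ctnna2, the alpha-catenin of neurons, was detected in 8 of 8 and 7 of 13 cells, at 383 and 41.4 summed CPM. Smchd1 was detected in 7 of 8 and 3 of 13 cells, at 31.6 and 7.68 CPM. Abi1, a subunit of the WAVE complex, was detected in 8 of 8 and 5 of 13 cells. The other 3 were Prickle1, Ncstn (a subunit of gamma-secretase) and the cohesin subunit Smc1a.

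The clustered protocadherins were detected in few cells each. At least 1 of the 58 clustered rows was detected in 46 of 86 astrocytes, 8 of 13 cultured cortical, 8 of 8 cultured hippocampal, 10 of 22 slice cortical, 5 of 14 CA1 and 2 of 5 CA3 neurons. The median number per cell was 1, 2, 6, 0, 0 and 0. Among the cells with any, the combinations of detected rows were mostly different. The 46 astrocytes held 37 distinct sets, the 8 cells of each cultured neuron group held 8, and the 10 slice cortical neurons held 8. Pairs of such cells shared a detected row in 22.7% of astrocyte pairs, 28.6% of cultured cortical, 75% of cultured hippocampal, 22.2% of slice cortical and 10.0% of CA1 pairs, and the only CA3 pair shared none. Both measures depend on how many rows a cell detected, and sparse detection by itself can make sets differ. Sets of other genes were not compared, so promoter choice was not tested.

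**Figure D4:**
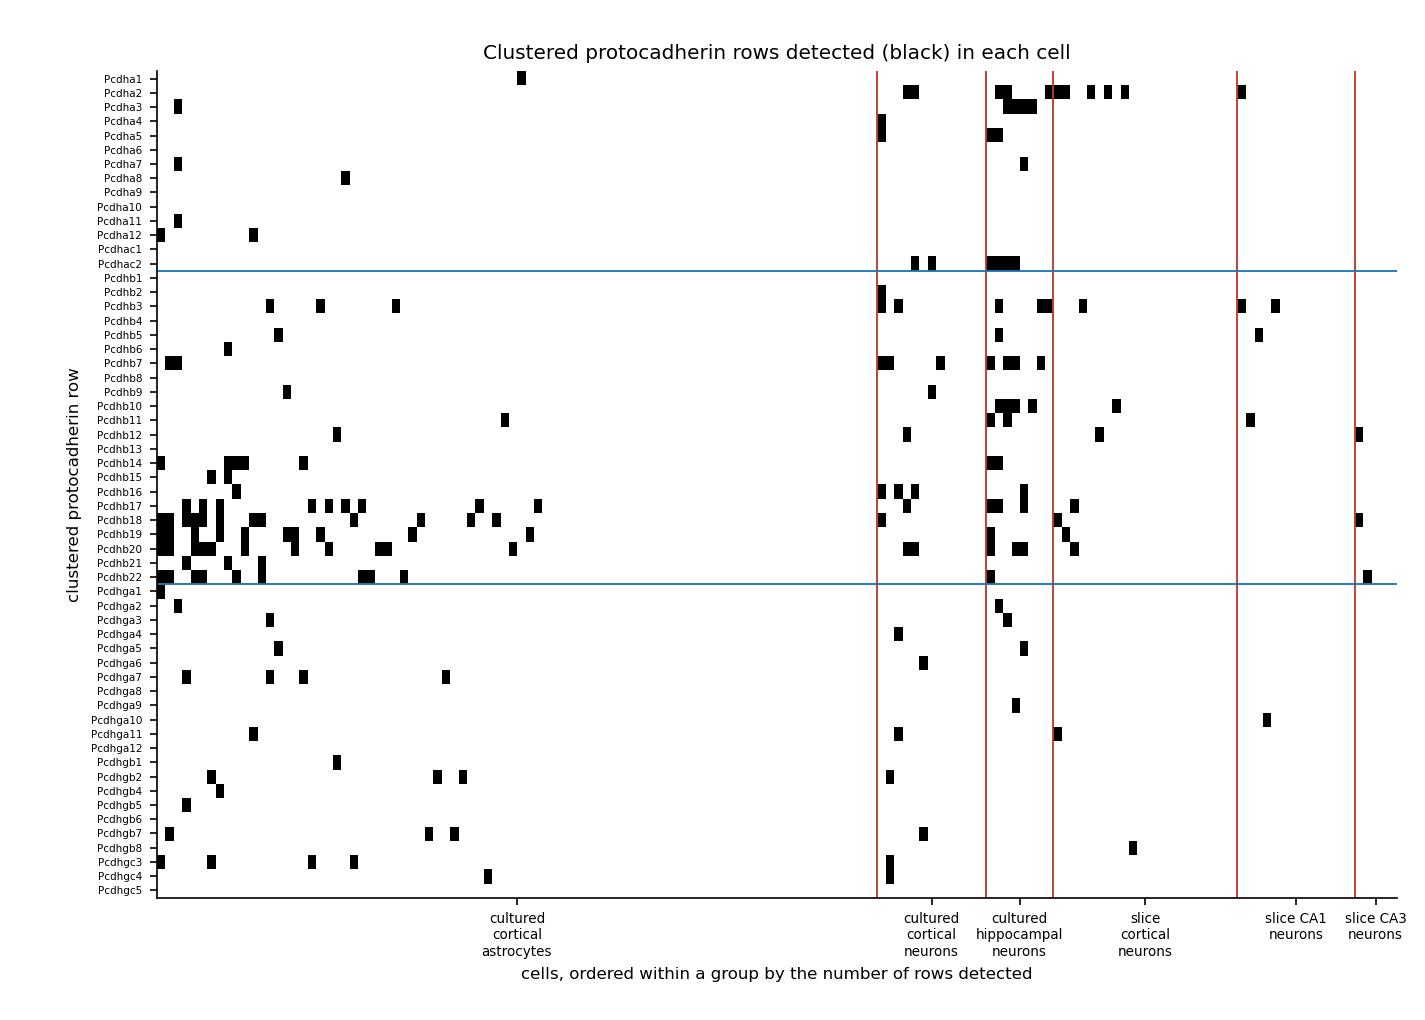
Detection of the 58 clustered protocadherin rows (y axis) in each cell (x axis), black where detected. Red lines separate the 6 groups and blue lines the alpha, beta and gamma clusters. Black marks are scattered in the astrocytes, where the most widely detected row was seen in 12 of 86 cells, and densest in the 8 cultured hippocampal neurons.

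In the astrocytes beta rows were detected in 39 of 86 cells, against 19 of 86 for gamma and 5 of 86 for alpha rows. Beta rows also led in every neuron group. They were detected in 7 of 13 cultured cortical, 8 of 8 cultured hippocampal, 6 of 22 slice cortical, 4 of 14 CA1 and 2 of 5 CA3 neurons. In the same order, alpha rows were detected in 4, 7, 5, 1 and 0 cells and gamma rows in 3, 4, 2, 1 and 0. In the astrocytes the row with the widest detection was Pcdhb18 (12 of 86 cells), followed by Pcdhb20 (11), Pcdhb19 (10), Pcdhb17 (9) and Pcdhb22 (9). In the cultured hippocampal neurons 4 rows reached 4 of 8 cells, namely Pcdha3, Pcdhac2, Pcdhb7 and Pcdhb10. Pcdha3 was at 16.9, 58.8, 5.66 and 10.8 CPM in M1S, M1D, N5S and P2S and had no count in the other 4 hippocampal libraries. The cortical cultures had no Pcdha3 count, and setting them at 3 counts in all gave a ratio of 717. This ratio allows for counting error only. It covers neither amplification nor differences between cells, so it is no lower bound for the groups. M1D held 40.4% of the hippocampal Pcdha3 counts, and without it the log2 ratio fell from 3.50 to 2.93. Pcdhb10 was at 3.91, 25.8, 33.7 and 35.7 CPM in M1S, M1D, M9S and P2S, a ratio of 771 on the same reckoning and with the same limit.

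Smaller numbers of hippocampal cells carried Pcdhb17 (3 of 8, log2 ratio to cortical cultures 2.05), Pcdhb14 (2 of 8, 3.25) and Pcdhb11 (2 of 8, with 1 count in the cortical cultures and a ratio of 559, counting interval 99.4 to 22190). These 3 calls rest on few cells. Each was lost when 1 of its hippocampal cells was left out. The log2 ratio was 0.28 for Pcdhb17 without N5S, 1.38 for Pcdhb14 without M6S and 0.59 for Pcdhb11 without P2S. The calls also ended without M9S or M6S for Pcdhb17, without M9S for Pcdhb14 and without M6S for Pcdhb11. Another random thinning ended those of Pcdhb11 and Pcdhb17. Pcdhb7 was at 67.3, 105, 78.4 and 20.4 CPM in M1S, M9D, M6S and P2S, and was detected in 3 of 13 cortical cultures, 2 of 86 astrocytes and no slice neuron. In slices the largest clustered levels came from 1 cell, as with Pcdhb22 in CA3 neurons, which was at 1162 CPM in CA3_10 and 0 in the other 4. In slice cortical neurons Pcdha2 was the clustered row with the widest detection, in 5 of 22 cells.

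Rows of the alpha and gamma clusters are uncertain. Their genes share constant exons at the 3′ end. In the GENCODE annotation a median of 53.6% of the exon bases of an alpha gene (range 29.2% to 91.4%) and 44.7% of a gamma gene (31.5% to 66.8%) also belong to another gene, with a shared 3′ stretch of 2860 and 2119 bases in the median. Beta genes have no shared constant exon, and the median share was 0% (at most 9.67%). How reads on shared exons were counted is not given in the sources used here, and its effect on the low detection of alpha and gamma rows was not tested.

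Slice cortical neurons were compared with cultured cortical neurons. Cdh4, Cdh22, a type II cadherin of the brain, and Pcdh8 were higher in culture, and Pcdh15 was higher in slices. Of the 55 members, 3 were higher in culture (5.45%) and 1 in slices (1.82%), against 14.6% and 0.779% of all 13741 rows. The median log2 ratio of slice to culture was -0.18 for members and -0.24 for all rows. These 13 cultured cells also entered the comparisons with astrocytes and with hippocampal neurons, so the 3 comparisons share them.

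Cdh4 ranged from 0 to 1.11 CPM over the slice neurons, with a median of 0, and from 0 to 418 CPM over the cultured neurons, with a median of 20.8. It was detected in 0 of 22 slice cells (upper limit of the interval 15.4%, for cells that reach 5 counts and not for cells that express the gene) and in 9 of 13 cultured cells (69.2%, interval 38.6% to 90.9%), with a log2 ratio of -6.19. The 9 cultured neurons with Cdh4 had a median of 75% of the astrocyte markers and the 4 without it 12.5%. For neuron markers these medians were 75% and 45%. The 9 included the 3 with more astrocyte than neuron markers. Without such neurons in both groups the log2 ratio was -6.24. Pcdh8 was also detected in 9 cultured neurons, with the same astrocyte-marker medians inside and outside them. Its neuron-marker medians were 80% and 45%. The part of these markers in the detection of both genes was not tested. By culture age it was detected in 1 of 3 cells at 6 days, 1 of 3 at 10 days, 4 of 4 at 13 days and 3 of 3 at 15 days. Cdh22 was detected in 1 of 22 and 5 of 13 cells, at 2.41 and 133 summed CPM (log2 ratio -5.30, -4.62 without J6, -7.05 without slice neurons with microglia markers), and its cultured cells were 3 of 4 at 13 days and 2 of 3 at 15 days. Pcdh8 was detected in 6 of 22 and 9 of 13 cells, at 41.4 and 268.9 CPM (log2 ratio -2.67). Without J6 its log2 ratio was -0.94, and within the later basecalling version -0.90, and in neither was it called. J6, which held 73.7% of the cultured Pcdh8 counts and 45.1% of those of Cdh22, also had 4 microglia and 4 oligodendrocyte-precursor markers, whose part was not tested.

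Pcdh15 ranged from 0 to 408 CPM over the slice neurons (median 0) and from 0 to 6.45 CPM over the cultured neurons (median 0). It was detected in 6 of 22 and 0 of 13 cells, at 28.1 and 0.397 summed CPM (log2 ratio 4.38), and the cell F7 held 83% of its slice counts. Of these 6 cells, 3 had at least 3 microglia markers and 3 had at least 1 marker of oligodendrocyte precursors, against 4 and 1 of the other 16 slice neurons. The call was lost without the cells that had microglia markers (log2 ratio 4.69), at 1 count for detection and with another random thinning.

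Slice cortical neurons detected no member in more than 50% of cells. Pcdh10 reached 11 of 22, Pcdh9 and Pcdh17 10 of 22, and Cdh2 9 of 22, followed by Celsr3, known from axon tract formation, and Pcdh19, a gene linked to epilepsy, in 8 of 22 each. Of the partners 6 were higher in culture (14.6% of all rows were) and 0 in slices (0.779% of all rows) among 40 measured, with a median log2 ratio of 0.18. Ctnnb1 (beta-catenin, which links cadherins to alpha-catenin) was at 178 CPM in slices and 848 in culture, in 11 of 22 and 12 of 13 cells. The cohesin subunit Rad21 was at 40 and 138 CPM, in 6 of 22 and 9 of 13 cells. Arvcf, a catenin, Fjx1, a kinase of the Fat and Dachsous pathway, and the protease Furin were also higher in culture.

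**Figure D5:**
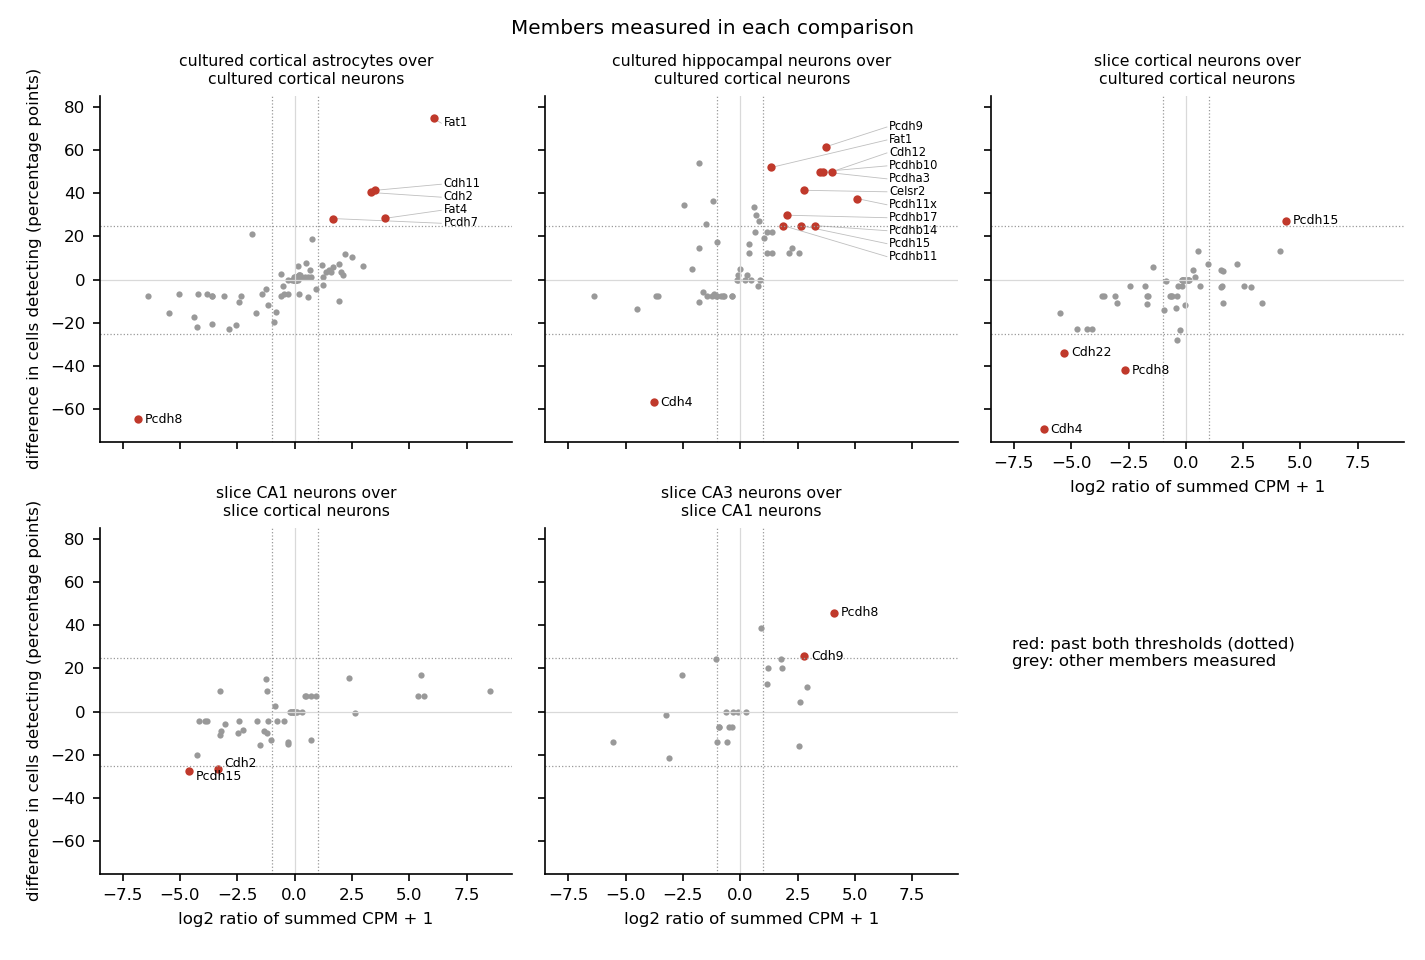
Each measured member in the 5 comparisons, with the log2 ratio of summed CPM plus 1 (x axis) and the difference in the percentage of cells that detected it (y axis). Dotted lines are the limits of 1 and 25 points, and red points passed both. Fat1, at a log2 ratio of 6.06, is farthest to the right in the comparison of astrocytes with neurons.

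CA1 neurons were compared with cortical neurons of slices. Cdh2 and Pcdh15 were higher in cortical neurons, and no member was higher in CA1. Of 47 members measured, 2 were higher in cortical neurons (4.26%) and 0 in CA1, where over all 12666 rows 2.19% were higher in cortical neurons and 0.947% in CA1. The median log2 ratio of CA1 to cortex was -0.48 for members and -0.37 for all rows. Cdh2 ranged from 0 to 24.3 CPM over the CA1 neurons (median 0) and from 0 to 118.9 CPM over the cortical neurons (median 0.765). It was detected in 2 of 14 and 9 of 22 cells, at 1.09 and 20.4 summed CPM (log2 ratio -3.35). None of the 9 cortical cells with Cdh2 had more astrocyte than neuron markers, and 4 of the 13 without it did. The 9 had a median of 35% of the astrocyte markers and the 13 had 20%, and an endothelial marker was detected in 3 of the 9 and 0 of the 13, whose part was not tested. Pcdh15 was at 0.206 and 28.1 CPM, in 0 of 14 and 6 of 22 cells (log2 ratio -4.59), and its call was lost without the cells that had microglia markers. That of Cdh2 was lost when 1 count was enough for detection and when only the later basecalling version was kept.

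The highest levels in CA1 came from single cells. Cdh12 was at 460 summed CPM, of which 99.9% came from CA1_20, and Pcdh20 at 176, of which 99.4% came from CA1-15. Cdh11 was detected in 6 of 14 cells, with 7534 CPM in CA1-17 and a median of 0.305 over cells. Celsr3 was detected in 5 of 14 cells at 67.1 summed CPM. Of the partners 37 were measured and 2 were called, both higher in cortical neurons (2.19% of all rows were). Dvl1 (Dishevelled, which acts below Frizzled) was at 1.03 CPM in CA1 and 169 in cortex, in 2 of 14 and 10 of 22 cells, and Adam10, the protease that sheds N-cadherin and gamma protocadherins, at 4.12 and 126 CPM, in 1 of 14 and 8 of 22 cells.

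CA3 neurons were compared with CA1 neurons, with 5 and 14 cells. Pcdh8 and Cdh9, a type II cadherin known from the synapses of dentate granule cells on CA3 neurons, were higher in CA3. Of 26 members measured, 2 were higher in CA3 (7.69%) and 0 in CA1, against 8.61% and 5.65% of all 9378 rows. The median log2 ratio was -0.34 for members and -0.70 for all rows. Pcdh8 was at 0, 0, 632, 1051 and 12.8 CPM in the CA3 cells CA3-2, CA3-8, CA3-9, CA3_10 and CA3_21, and ranged from 0 to 163 CPM over the CA1 cells, with a median of 0. It was detected in 3 of 5 (60%, interval 14.7% to 94.7%) and 2 of 14 cells (14.3%, interval 1.78% to 42.8%), at 358 and 19.8 summed CPM (log2 ratio 4.11). The groups overlapped, as 2 CA3 cells had no count. The log2 ratio was 2.20 without CA3_10, 4.76 without CA3-8 and 2.94 without the CA1 cells that had microglia markers.

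Cdh9 was at 32.1, 0, 1.02, 0 and 236.4 CPM in the same 5 cells and ranged from 0 to 25.6 CPM over the CA1 cells. Cells with Cdh9 numbered 2 of 5 and 2 of 14, at 22.7 and 2.40 summed CPM (log2 ratio 2.80, or 3.44 without CA3-8). Its call was lost without CA3-2 (log2 ratio 2.67), without CA3_21 (1.10), within the later basecalling version, without the CA1 cells that had microglia markers, and without the CA1 cell that had more astrocyte than neuron markers. At least 3 microglia markers were detected in 7 of 14 CA1 and 0 of 5 CA3 cells.

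Other members differed widely among the 5 CA3 cells. In the same order, Pcdh20 was at 389, 0, 52.5, 914 and 1.02 CPM, Pcdh10 at 0, 0.0992, 82.7, 2011 and 2.04, and Pcdh17 at 0.203, 1552, 0.339, 2.78 and 2.04. Pcdh9 was at 53.5, 0.794, 0, 63.5 and 513 CPM, and Cdh11 at 32.1, 0.0992, 358, 7.82 and 0. Cdh8, a type II cadherin, was at 190, 0, 593, 0 and 0 CPM. Pcdh20 and Pcdh10 were highest in CA3_10, Pcdh17 in CA3-8, Pcdh9 in CA3_21, and Cdh11 and Cdh8 in CA3-9. Celsr3 was detected in 3 of 5 cells, at up to 101 CPM. Fat1, Cdh13 and the 22 gamma rows had no count in the 5 CA3 cells. Of the partners 33 were measured, 6 were higher in CA3 (8.61% of all rows) and 3 in CA1 (5.65%), with a median log2 ratio of 0.17. Nckap1, a subunit of the WAVE complex, was at 822 CPM in CA3 and 15.9 in CA1, in 3 of 5 and 1 of 14 cells, and Vcl at 110 and 21.3 CPM in the same numbers of cells. Ptk2b (Pyk2), a kinase bound by clustered protocadherin tails, was higher in CA1, at 127 CPM in CA3 and 300.9 in CA1, in 2 of 5 and 12 of 14 cells.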

How the data were processed

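The series description gives 3 rounds of aRNA amplification, and the labels' protocols the Illumina TruSeq Stranded kit. The submitters' processing notes name bcl2fastq 1.8.4 or bcl2fastq2 2.17, HTSeq, STAR and the builds mm10 and GRCm38. The aligner's version, the counter's version, its strand setting and its gene models were not given in the sources used here. Raw counts per gene, with no normalization, were deposited by the authors, and the file header names each library. Amplified reads are not independent molecules.

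From these counts, 9 pairs of libraries were summed into 1 cell each, on matching titles in 8 of them, on counts alone for J6, and on the likeness of the counts in all (r of log2 CPM 0.945 to 0.999, against at most 0.621 with any other library). Counts were summed per group and divided by the group total. Cells were thinned to 1000000 counts (seed 7, without replacement). Log2 ratios used a pseudocount of 1 CPM. Every called member is named, with every member detected in at least 50% of the cells of a group, and of the partner lists at most 6 called genes per comparison with values. A partner gene among the called ones is not reported here. The members and lists were chosen with earlier results of these data known. The calling script was tested on simulated data. Alternatives were other weights and factors (edgeR 4.0.16, DESeq2 1.42.0), pseudocounts, filters, detection rules, and sets of cells. Python 3.11.15, numpy 2.4.6, pandas 2.3.3, scipy 1.17.1 and R 4.3.3 were used. Reference sequences and gene models came from RefSeq and GENCODE, of which GENCODE matched 100 of 101 members.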

Additional observations from a re-analysis of the deposited data

Results flagged for a closer look

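In the small groups, 16 sets of values were checked. In 6 of them the gap of a cell to the next value was large for the whole range (Dixon's 95% limit). That limit flags by chance about 1 in 20 sets of normally distributed values. Many of the values here were 0, so the 1 in 20 does not hold for them. Among the 8 cultured hippocampal neurons the flagged values were Cdh4 in M1S (18.7 CPM), Pcdha3 in M1D (58.8 CPM), Pcdhb11 in P2S (20.05 CPM), Pcdhb14 in M6S (69.1 CPM) and Pcdhb17 in N5S (120.9 CPM). Among the 5 CA3 neurons it was Cdh9 in CA3_21 (236.4 CPM). In each of these sets the other cells lay at or near 0 or far below the highest cell.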

How the results depend on the processing

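The members have 1 sample per group, so counts of called members show only how the calls depend on the settings. Shares over all rows are not given for the alternatives or with a cell left out. The counts below therefore have no background to be set against. No paired analysis was possible because no test was made and the labels' replicate numbers pair no cells. No called log2 ratio changed sign in any alternative. At 1 count for detection, 3 members were higher in cultured cortical neurons than in astrocytes, 2 higher in cultured cortical than in hippocampal neurons, 0 higher in slice than in cultured cortical neurons and 1 higher in CA1 than in CA3 neurons, and the median of members per cell was 19 in cultured cortical, 11 in slice cortical, 9 in CA1 and 8 in CA3 neurons. At a difference of 15 points, 8 were higher in cultured cortical neurons than in astrocytes, 7 in cultured than in slice cortical neurons, 2 in CA1 than in slice cortical neurons, 4 in the reverse direction, 5 in CA3 than in CA1 neurons and 1 in the reverse direction. With basecalling v2.17 only, cultured cortical neurons had 3 over astrocytes and 6 over slice neurons, and CA1 and slice cortical neurons 1 each over the other. Without the neurons that had more astrocyte markers, 1 was higher in CA3 than in CA1. Without slice neurons with microglia markers, 0 were higher in slice than in cultured cortical neurons, 3 in CA1 than in slice cortical neurons and 4 in CA1 than in CA3. Of the alternatives chosen after seeing the data, taking J6 as 2 cells gave 3 and another random thinning 2 members higher in cultured cortical neurons than in astrocytes, and that thinning 0 higher in slice than in cultured cortical neurons. The third, without hippocampal libraries of title letter D, gave 14 higher in hippocampal than in cortical cultures, against 11.

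Leaving out 1 cell of the smaller group at a time gave 4 to 5 members higher in astrocytes and 1 to 2 in cultured cortical neurons, 9 to 14 higher in hippocampal cultures and 1 in cortical ones, 1 higher in slice and 3 to 6 in cultured cortical neurons, 0 higher in CA1 and 2 to 3 in slice cortical neurons, and 2 to 6 higher in CA3 and 0 to 1 in CA1. Before the pseudocount, DESeq2 size factors shifted every log2 ratio of a comparison by the same amount. The shifts were -0.09 (astrocytes to neurons), -0.25 (hippocampal to cortical cultures), 0.32 (slice to culture), 0.67 (CA1 to cortex) and 0.77 (CA3 to CA1). Those of TMM factors were 0.01, -0.41, 0.27, 0.44 and 0.13. With the pseudocount, rows of low level moved by less. The cause of these changes was not tested.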
